A study of Mus musculus with 18 samples.

Results

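Levels of 9 genes of double-strand break and crosslink repair were followed in sorted neonatal mouse cardiac fibroblasts, namely Brca1, Brca2, Rad51ap1, Rad54l, Blm, Polq, Exo1, Fancd2 and Fanci. These 9 genes were selected by name from the 55453 symbols of the count table, with their levels in these 18 libraries already known, so their own values are given as a description and no p-value of a member is printed. Where members are counted as past a threshold or as not overlapping between groups, the share of all genes stands beside the count, and in no comparison is that count read as evidence of a difference. All 9 members passed the filter on low counts, which left 16170 genes to test. Bulk RNA sequencing was done on GFP+ cells of the Tcf21 lineage, with 3 libraries in each of 6 groups. All groups came from C57BL/6J pups carrying Tcf21 MerCreMer/+ and Rosa mTmG/+ that received tamoxifen on postnatal day 1 (P1), so that Cre activated in Tcf21-expressing cells turned on membrane GFP. P2 baseline and P10 baseline pups were not operated on and were collected at day 2 or day 10. P2 sham, P2 resection, P10 sham and P10 resection pups had sham surgery or removal of the ventricular apex (apical resection) at that age and were collected 3 days later, at day 5 or day 13. Older hearts were digested for longer than younger ones, so that digestion and age cannot be told apart. Neither the litter, the number nor the sex of the pups behind a library is given, and the spread between libraries may be partly technical.

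Homologous recombination copies the sister chromatid to mend a broken chromosome, and it works mainly in cells that are copying or have copied their DNA. The broken end is first cut back to a single strand (Brca1, Exo1), which is made ready with the help of Brca2 and invades the sister with the help of Rad51ap1 and the motor protein Rad54l, and the joined molecules are later taken apart by the helicase Blm. Polq encodes DNA polymerase theta, which joins ends through short matching sequences, and Fancd2 and Fanci form the clamp that Fanconi anaemia proteins load on DNA at a crosslink. Transcription of many such genes is known to follow the cell cycle through E2F factors and the cell cycle homology region (CHR).

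Promoters of Polq, Brca2 and Rad51ap1 are shown because they were the members with a match to an E2F word. Promoter here means 250 bases before to 50 after the RefSeq start on GRCm38.p6, and sequences from RefSeq were matched by symbol for 7 of the 9 members. The E2F words searched on both strands were TTTCCCGC, TTTCGCGC, TTTGCCGC, TTTGGCGC and TTCCCGCC, of which TTTCCCGC and TTCCCGCC overlap in part, and the CHR words were TTTGAA and TTCGAA. Capitals mark the matches, and each sequence reads 5′ to 3′ along the gene's strand.
Polq, chr16:37011536-37011835, plus strand: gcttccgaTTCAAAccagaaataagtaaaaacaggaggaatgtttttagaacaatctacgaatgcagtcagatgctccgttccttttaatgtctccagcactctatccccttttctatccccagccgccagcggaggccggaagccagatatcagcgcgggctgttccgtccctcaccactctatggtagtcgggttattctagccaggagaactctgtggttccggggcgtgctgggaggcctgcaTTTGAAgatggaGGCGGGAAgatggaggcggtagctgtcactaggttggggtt
Brca2, chr5:150522371-150522670, plus strand: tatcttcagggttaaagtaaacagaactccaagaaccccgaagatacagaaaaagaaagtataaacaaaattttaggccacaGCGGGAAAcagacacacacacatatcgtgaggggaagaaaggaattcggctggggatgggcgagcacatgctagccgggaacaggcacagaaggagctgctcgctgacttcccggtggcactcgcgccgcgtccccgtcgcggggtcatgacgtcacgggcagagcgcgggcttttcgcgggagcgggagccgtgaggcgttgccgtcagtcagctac
Rad51ap1, chr6:126939538-126939837, minus strand: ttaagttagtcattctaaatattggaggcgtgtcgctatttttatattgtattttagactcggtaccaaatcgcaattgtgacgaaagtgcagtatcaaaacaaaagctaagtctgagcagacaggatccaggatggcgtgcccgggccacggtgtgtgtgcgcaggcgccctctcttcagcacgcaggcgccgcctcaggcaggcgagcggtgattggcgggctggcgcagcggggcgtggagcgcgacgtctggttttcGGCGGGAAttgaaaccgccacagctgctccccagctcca
An E2F word stood in the promoter of 3 of the 7 members, beside 4.46% of the 27025 genes with a RefSeq promoter. A CHR word stood in 1 of 7, Polq, beside 21.7% of genes. The matches are a description of these windows and not sites of binding.

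Annotation of GRCm38 places Brca1 at chr11:101488764-101551955, Brca2 at chr5:150522630-150570329, Rad51ap1 at chr6:126923050-126939587, Rad54l at chr4:116094264-116123690, Blm at chr7:80454733-80535119, Polq at chr16:37011786-37095417, Exo1 at chr1:175880581-175913489, Fancd2 at chr6:113531682-113597017 and Fanci at chr7:79391929-79450264. Counting used no strand information. The exons of Fanci shared 16.0% of their bases with Polg on the other strand, those of Rad54l 15.4% with Lrrc41, those of Fancd2 3.24% with Fancd2os and those of Brca2 0.301% with Gm42529, so that reads of these stretches could not be told apart. The exons of the other 5 members overlapped no other gene, and at most 0.99% of the 75-base windows of a member (Brca2) occurred in another, non-overlapping gene.

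Library totals ran from 10462737 to 22980554 counts, and the fibroblast markers Tcf21 (203 to 447 CPM) and Pdgfra (256 to 878 CPM) were present in all 18 libraries. CPM denotes counts of a gene per 1000000 counts of its library, with library totals scaled by the trimmed mean of M values. A member without a count in a library could be present at up to 0.128 to 0.296 CPM, the level of 3 counts, which covers counting error only. Apart from the rest of their groups stood 3 libraries, the first replicates of P2 sham, P10 baseline and P10 sham, whose titles end in the same number, 3, which the labels do not explain. The titles of the second and the third P10 baseline libraries end in the letter P, which is not explained either. Their chi-square per gene against the remaining replicates of the group averaged 233, 160 and 155, while those remaining replicates differed from each other by 76.5, 35.0 and 35.5. The first replicate held the highest value of the group for 6 of 9 members in P2 sham, for 9 of 9 in P10 baseline and for 6 of 9 in P10 sham, and counts of calls are therefore also given without these 3 libraries. The first replicate was also the highest for 8 of 9 members in P2 baseline and for 6 of 9 in P10 resection, libraries that did not stand apart in this way.

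Levels of the 9 genes at P2 baseline can be set side by side only per length, in CPM per kilobase of exon. Rad51ap1 was the highest at 7.85 ± 2.33 (SD, n = 3), and its lowest library lay above the highest library of the next gene. Rad54l (3.24 ± 1.26), Brca1 (2.86 ± 0.672) and Exo1 (2.83 ± 0.410) followed with overlapping ranges. Fanci stood at 2.30 ± 0.190 and did not overlap Exo1, but it overlapped Rad54l and Brca1. Exon lengths here include the stretches shared with other genes, 16.0% for Fanci and 15.4% for Rad54l. The effect of these stretches on the order was not tested. Blm (1.61 ± 0.566), Fancd2 (1.49 ± 0.639), Brca2 (1.25 ± 0.181) and Polq (0.867 ± 0.551) came last, each overlapping its neighbour in this order. Full-length cDNA amplification can weigh transcripts unequally, and the part of this in the order was not tested.

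**Figure D1:**
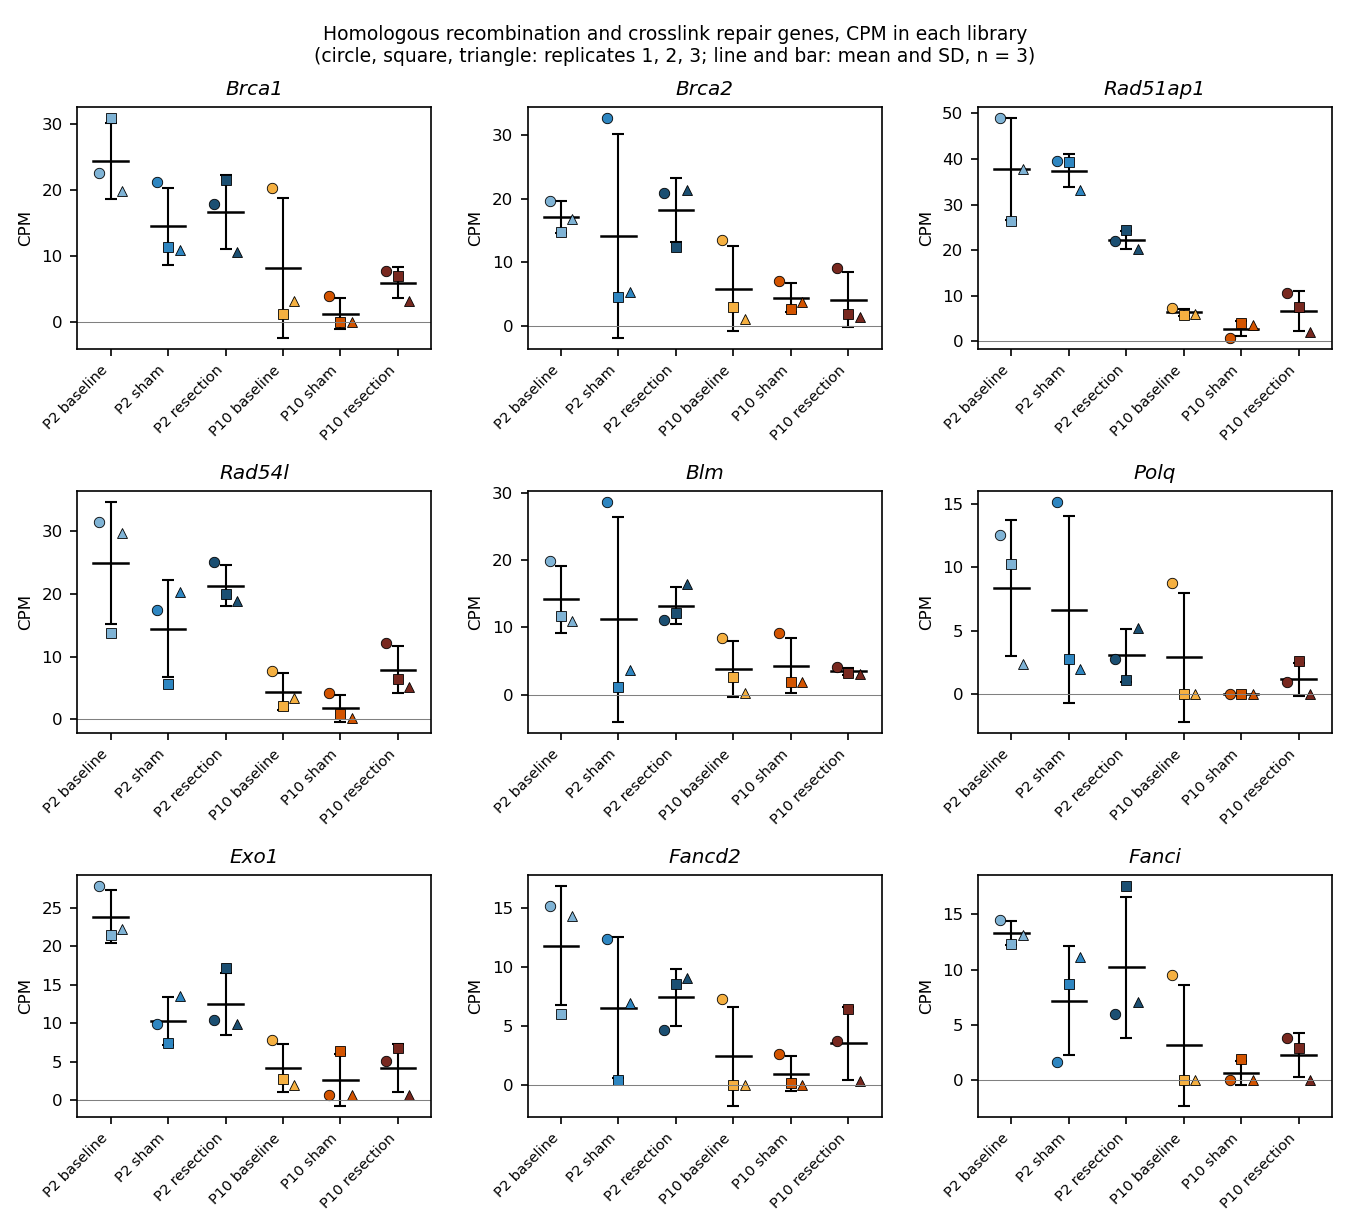
CPM (linear axis) of each of the 9 repair genes in all 18 libraries, with circles, squares and triangles for replicates 1, 2 and 3, and a line and bar for the group mean and SD (n = 3). The P10 groups lie below the P2 groups for most genes, Rad51ap1 has no P10 library above 10.6 CPM, and in P10 baseline the circle is the highest point in all 9 panels.

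Brca1 and Exo1 act at the start of recombination, Brca1 by promoting the cutting back of the broken end and Exo1 as the nuclease that extends it. Brca1 was at 22.5, 30.8 and 19.9 CPM in the P2 baseline libraries, 21.1, 11.3 and 10.9 in P2 sham and 17.9, 21.5 and 10.6 in P2 resection. At P10 it was at 20.3, 1.18 and 3.16 CPM at baseline, 3.95, 0 and 0 in sham and 7.75, 6.99 and 3.26 in resection. One P10 baseline library thus sat within the P2 range while the other two were at or below 3.16 CPM, and 2 P10 sham libraries had no Brca1 count at all. Exo1 stood at 27.8, 21.5 and 22.2 CPM in P2 baseline, 9.89, 7.38 and 13.5 in P2 sham and 10.4, 17.2 and 9.91 in P2 resection. Its P10 values were 7.77, 2.84 and 1.97 CPM at baseline, 0.699, 6.47 and 0.754 in sham and 5.12, 6.80 and 0.699 in resection. Every P10 group of Exo1 lay below the P2 group of the same treatment without overlap, and among the P2 groups the baseline libraries were above the sham and resection libraries.

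Brca2, Rad51ap1 and Rad54l act at strand invasion, Brca2 in preparing the single strand, Rad51ap1 in pairing it with the sister and Rad54l in driving strand exchange. Rad51ap1 was at 48.9, 26.5 and 37.9 CPM in P2 baseline, 39.7, 39.3 and 33.2 in P2 sham and 21.99, 24.4 and 20.3 in P2 resection. At P10 it was at 7.34, 5.73 and 6.02 CPM at baseline, 0.849, 4.01 and 3.63 in sham and 10.6, 7.56 and 2.02 in resection. No P10 library reached the lowest P2 library of Rad51ap1, and within P2 the 3 resection libraries lay below all baseline and sham libraries. Rad54l was at 31.4, 13.8 and 29.7 CPM in P2 baseline, 17.5, 5.67 and 20.3 in P2 sham and 25.1, 20.0 and 18.9 in P2 resection. Its P10 libraries held 7.70, 2.03 and 3.35 CPM at baseline, 4.15, 0.841 and 0.189 in sham and 12.2, 6.36 and 5.21 in resection. All P10 sham libraries of Rad54l were below all P10 resection libraries, and each P10 group lay under its P2 counterpart. Brca2 was at 19.7, 14.7 and 16.8 CPM in P2 baseline, 32.7, 4.57 and 5.22 in P2 sham and 20.8, 12.3 and 21.3 in P2 resection. In the older hearts Brca2 was at 13.5, 2.94 and 0.987 CPM at baseline, 6.94, 2.59 and 3.68 in sham and 9.10, 1.84 and 1.32 in resection. The sham libraries of Brca2 overlapped between ages, since the second and the third P2 sham libraries were at 4.57 and 5.22 CPM.

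Blm, the helicase that dissolves joined chromosomes, varied widely between libraries. Its P2 values were 19.8, 11.6 and 10.9 CPM at baseline, 28.6, 1.15 and 3.72 in sham and 11.1, 12.2 and 16.4 in resection. At P10 Blm stood at 8.43, 2.62 and 0.296 CPM at baseline, 9.09, 1.94 and 1.93 in sham and 4.03, 3.18 and 3.11 in resection. The SD of Blm in P2 sham was 136% of its mean, since 1 library was at 28.6 CPM and the others at or below 3.72, and 8 of the 9 P10 libraries exceeded the lowest P2 library. Baseline and resection groups of Blm did not overlap between ages, and the sham groups did.

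Polq, the polymerase of theta-mediated end joining, was at 12.6, 10.2 and 2.38 CPM in P2 baseline, 15.1, 2.81 and 2.02 in P2 sham and 2.81, 1.15 and 5.23 in P2 resection. At P10 baseline it was at 8.74, 0 and 0 CPM, in P10 sham at 0, 0 and 0 and in P10 resection at 0.944, 2.61 and 0. Polq had counts in 9 of 9 P2 libraries and no count in 6 of 9 P10 libraries. Against a floor of 3 counts over the group, P10 sham was at least 135-fold lower than P2 sham, and this bound was 47.0 without the first P2 sham library and 84.5 to 183 without any other library. The same floor put P10 resection at least 23.3-fold above P10 sham, a bound of 10.9 to 31.6 when 1 library was left out and lowest without the second P10 resection library. This bound rested on 60 counts in the resection group, 19 and 41 in its first and second libraries and 0 in the third.

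Fancd2 and Fanci encode partners of a single clamp. Fancd2 was at 15.2, 6.00 and 14.3 CPM in P2 baseline, 12.4, 0.369 and 6.92 in P2 sham and 4.63, 8.54 and 9.08 in P2 resection, and at 7.28, 0 and 0 in P10 baseline, 2.65, 0.129 and 0 in P10 sham and 3.73, 6.48 and 0.311 in P10 resection. Fanci was at 14.5, 12.3 and 13.2 CPM in P2 baseline, 1.67, 8.67 and 11.2 in P2 sham and 5.98, 17.6 and 7.10 in P2 resection. Its P10 libraries held 9.46, 0 and 0 CPM at baseline, 0, 1.88 and 0.0472 in sham and 3.83, 2.86 and 0 in resection. Both genes were without counts in the same 2 P10 baseline libraries, the second and the third, in which Polq was also at 0. At P2 the partners parted in sham library 1, where Fancd2 was at its group's highest and Fanci at its group's lowest.

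The comparison of P10 with P2 asked how the repair genes change over the window in which the mouse heart loses its capacity to regenerate. In baseline hearts all 9 members had negative log2 fold changes, from -2.57 (SE 0.53) for Rad51ap1 and -2.51 (SE 0.79) for Rad54l to -1.56 (SE 1.14) for Brca1, -1.54 (SE 0.89) for Brca2 and -1.52 (SE 1.64) for Polq. Exo1 stood at -2.50 (SE 0.83), Fancd2 at -2.27 (SE 1.67), Fanci at -2.06 (SE 1.65) and Blm at -1.89 (SE 1.00). The median of the members was -2.06 on the log2 scale, that of all 16170 genes tested was -0.03. In edgeR's quasi-likelihood fit across all genes, 1 member (Rad51ap1) was called lower at an adjusted p under 0.05, where 1.68% of all genes were called lower and 2.71% higher. CPM of the groups did not overlap for 6 members (Brca2, Rad51ap1, Rad54l, Blm, Exo1 and Fanci), beside 12.1% of all genes that were lower without overlap. DESeq2 called 3 members lower (Rad51ap1, Rad54l and Exo1), beside 4.31% of all genes. Age was known to separate the members when they were chosen.

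The number of members called at baseline depended on single libraries. With the first P10 baseline library left out 6 members were called lower, and so were 3.25% of all genes. With the first P2 baseline library or the second or the third P10 baseline library left out 0 were called, beside 0.594%, 0.452% and 0.551% of all genes called lower. When the 3 libraries with titles ending in 3 were left out together, a choice made after their values were seen, all 9 members were called lower, and the share of all genes called lower rose to 8.71%. The members' median was then -3.30 on the log2 scale.

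In sham hearts the P10 group was again lower in sign for 9 of 9 members. The log2 fold change was -3.73 (SE 0.56) for Rad51ap1, -3.51 (SE 1.79) for Fanci, -3.44 (SE 1.24) for Brca1, -3.06 (SE 0.81) for Rad54l and -2.81 (SE 1.72) for Fancd2, while Exo1 (-1.97, SE 0.82), Brca2 (-1.68, SE 0.90) and Blm (-1.37, SE 0.99) had smaller differences. The members' median was -3.06, also with Polq at its bound, against -0.07 for all genes. Rad51ap1 and Rad54l were called, 2 of 9, where 1.65% of all genes were called lower and 1.54% higher. Ranges were separate for 5 members (Brca1, Rad51ap1, Rad54l, Polq and Exo1), beside 7.61% of all genes, and DESeq2 called 4 (Brca1, Rad51ap1, Rad54l and Polq), beside 4.16%. Without the 3 libraries 3 members were called (Brca1, Rad51ap1 and Rad54l), beside 1.48% of all genes.

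After resection 9 of 9 members were also lower in sign at P10 than at P2. Log2 fold changes ran from -2.18 for Fanci and -2.14 for Brca2 to -1.08 for Fancd2, with a median of -1.56, against -0.04 for all genes. edgeR called 0 of 9 members, where it called 0.235% of all genes lower and 0.625% higher. At an unadjusted p under 0.05 Brca2 and Rad51ap1 were lower, 2 of 9 beside 4.18% of all genes, and DESeq2 called 1 member, Rad51ap1, beside 1.57%. The ranges of 7 members (Brca1, Brca2, Rad51ap1, Rad54l, Blm, Exo1 and Fanci) did not overlap, beside 12.7% of all genes that were lower without overlap.

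**Figure D2:**
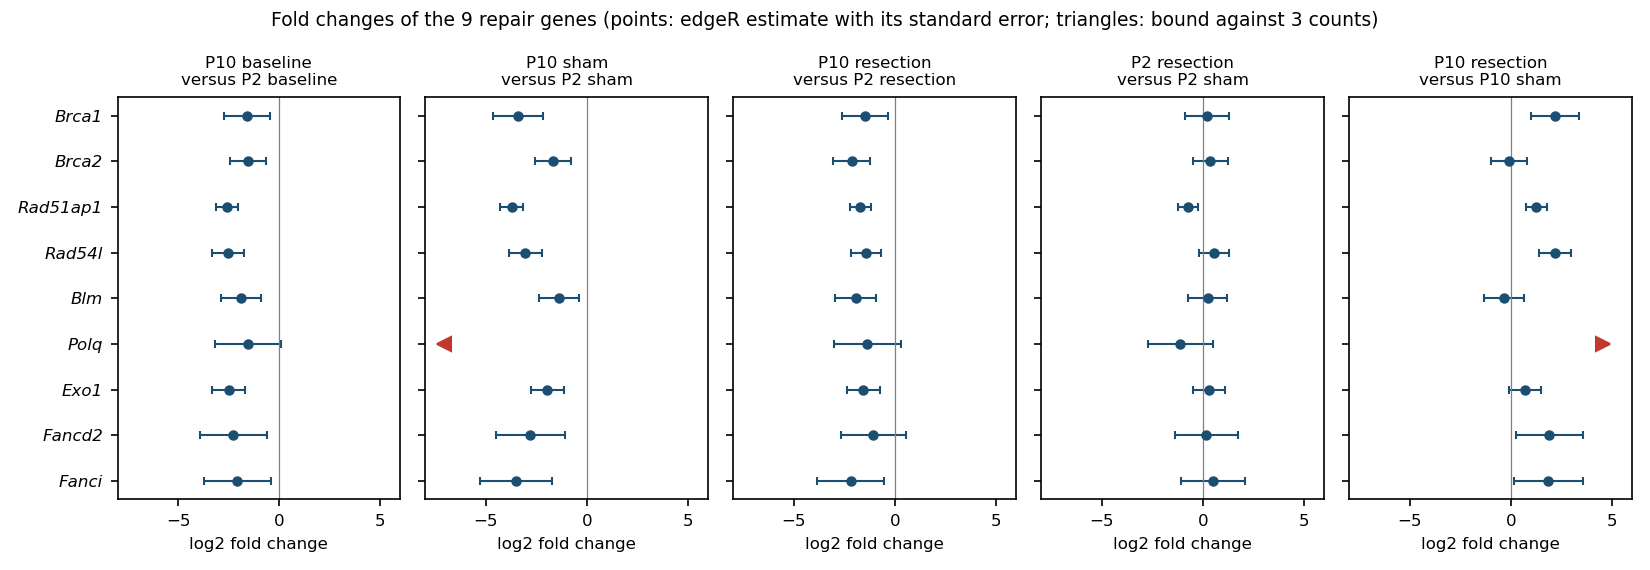
Log2 fold change of the 9 repair genes in 5 comparisons (horizontal axis, edgeR estimate with its standard error as a bar), with a red triangle where 1 group had no count and the fold is a bound against 3 counts. All age comparisons lie left of 0, the P2 resection comparison straddles 0, and in P10 resection versus sham 7 of 9 genes lie to the right of 0.

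Resection was compared with sham at each age to ask whether the repair genes respond to injury. At P2 the members scattered around 0, 7 higher and 2 lower in sign, with log2 fold changes from -1.12 (SE 1.62) for Polq and -0.75 (SE 0.50) for Rad51ap1 to 0.56 (SE 0.74) for Rad54l. Their median was 0.24, and that of all genes was 0. edgeR called 0 members and 0% of all genes, an unadjusted p under 0.05 was reached by 0 members and 4.51% of all genes, and DESeq2 called 0 members and 0.2% of all genes. Ranges were separate for Rad51ap1, 1 of 9, which was lower after resection, beside 8.47% of all genes in either direction. Without the 3 libraries 8 members were higher and 1 lower in sign, with a median of 0.59, and 0 were called beside 0.155% of all genes. This does not show that resection changed any member or left the members unchanged, because their standard errors were between 0.50 and 1.62 on the log2 scale.

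At P10 the members' median difference between resection and sham was 1.84 on the log2 scale, against 0.02 for all genes, and 7 of 9 were higher in sign. Rad54l was at 2.19 (SE 0.79), Brca1 at 2.17 (SE 1.19), Fancd2 at 1.91 (SE 1.67), Fanci at 1.84 (SE 1.71), Rad51ap1 at 1.26 (SE 0.52) and Exo1 at 0.69 (SE 0.80), whereas Brca2 (-0.10, SE 0.88) and Blm (-0.33, SE 0.98) were lower in sign. edgeR called 0 members and 0% of all genes. At an unadjusted p under 0.05, Rad51ap1, Rad54l and Polq were higher, 3 of 9 beside 4.09% of all genes, and DESeq2 called 1 (Polq) beside 0.213%. Polq had 60 counts in P10 resection and none in P10 sham. Every DESeq2 call of Polq given here involves that sham group without a count. The ranges of Rad54l alone were separate, 1 of 9 beside 8.68% of all genes. Leaving out the 3 libraries put 9 of 9 members higher in sign, with a median of 1.26, and gave 1 call, Brca1, the 1 gene of all those tested in that fit (0.00596%), and both remaining P10 sham libraries had no Brca1 count.

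The resection libraries at P10 also differed among themselves. The summed CPM of the 9 members was 57.3, 44.7 and 15.9 in P10 resection and 28.3, 17.9 and 10.2 in P10 sham. Macrophage markers, 12 genes, summed to 481, 1144 and 80.6 CPM in these resection libraries and to 104, 385 and 307 in the sham libraries, so that the third resection library was lowest for both sums. Epicardial markers, 9 genes, summed to 102, 70.8 and 50.1 CPM in the resection and 40.0, 31.8 and 30.8 in the sham libraries, without overlap and in the same order of libraries as the members' sums in each group. Endothelial markers, 9 genes, summed to 493, 310 and 352 CPM in resection and 475, 404 and 252 in sham. By median over the 18 libraries, single genes stood far above the rest of both lists. Tbx18 was at 55.0 CPM (the other epicardial markers at or below 1.57) and Tek at 228 CPM (the other endothelial markers at or below 11.2). In single libraries the other markers reached up to 16.5 CPM (Upk3b) and 68.1 CPM (Kdr), so these genes need not carry every sum. None of these markers was called between P10 resection and sham, where 12 of 12 macrophage, 9 of 9 epicardial (median 3.15 on the log2 scale) and 8 of 9 endothelial markers (median 1.08) were higher in sign, and their part in the members' values was not tested. Fewer cells of a type and less RNA per cell cannot be told apart in bulk samples.

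The difference between the resection effects at P10 and P2 had a members' median of 1.63 on the log2 scale, against 0.03 for all genes. edgeR called 0 members and 0% of all genes, 2 members (Rad51ap1 and Polq) had an unadjusted p under 0.05 beside 2.88% of all genes, and DESeq2 called 1 (Polq) beside 0.114%. The sham groups of both ages enter these comparisons and those with baseline, so the members' values in them are not independent of each other.

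Sham and baseline were compared within an age, which also compares pups 3 days apart. At P2 all 9 members were lower in sign in sham, with a median of -0.75 against 0.03 for all genes and the largest difference for Exo1, -1.22 (SE 0.79). The count of members called was 0 with edgeR (0% of all genes), 0 at an unadjusted p under 0.05 (7.6%) and 0 with DESeq2 (1.09%), and the ranges of Exo1 and Fanci, 2 of 9, were separate beside 9.96% of all genes. Without the 3 libraries the median was -1.19, and 0 members were called beside 2.76% of all genes. At P10 8 of 9 members were lower in sign in sham, with a median of -1.33 against -0.02 for all genes. edgeR called 0 members beside 0.00618% of all genes, Brca1, Rad51ap1 and Polq had an unadjusted p under 0.05 (3 of 9 beside 7.4%), DESeq2 called Polq (1 of 9 beside 0.963%), and only Rad51ap1 had separate ranges (1 of 9 beside 10% of all genes). With the first P10 baseline library alone left out, Brca2, Exo1, Fancd2 and Fanci turned from lower to higher in sign, the last pair having no count in the remaining baseline libraries. Without the 3 libraries the median was 0.36, with 3 members lower and 5 higher in sign, Polq had no count in either group, and Brca1, at 0 in both remaining sham libraries, was called lower, the 1 gene of all those tested that was (0.00596%).

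Other genes of the same pathways were tested in the same fit across all genes, in lists that were drawn up with earlier results of these data known. Of 45 other homologous recombination genes, 6 were called lower from P2 to P10 baseline and 0 higher, beside 1.68% and 2.71% of all genes. In sign 35 were lower, with a median of -0.79. Brip1, a helicase that binds Brca1, fell by 2.93 on the log2 scale (SE 0.55, adjusted p = 0.00567), from 21.9 ± 9.83 to 2.84 ± 2.00 CPM (SD, n = 3). Gen1, a nuclease that cuts joined chromosomes, had 895 counts at P2 and 5 at P10 baseline, 15.3 ± 8.57 against 0.0892 ± 0.154 CPM (adjusted p = 0.00854). Fignl1, an ATPase, fell by 2.01 (SE 0.51, adjusted p = 0.0319), and Rbbp8 and Nbn were also called. The calls of Brip1 and Gen1 held without any 1 of the 6 libraries, while that of Fignl1 was lost without 5 of the 6. Of 25 other Fanconi anaemia and crosslink repair genes, 1 fell, Fancb, a subunit of the core complex that modifies Fancd2 and Fanci (-2.83, SE 0.61, adjusted p = 0.0129), and this call was lost without 3 of the 6 libraries. Fancb was at 15.0, 11.5 and 7.25 CPM in P2 baseline and 1.88, 1.55 and 1.28 in P10 baseline. It was not lower at P10 in the operated groups, at 5.93 ± 3.63 CPM in P2 sham and 6.36 ± 0.947 in P10 sham, and at 5.20 ± 2.50 in P2 resection and 5.47 ± 1.09 in P10 resection (SD, n = 3).

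Between the sham groups 4 of the 45 recombination genes fell, beside 1.65% of all genes called lower. Among them were Brip1 (-3.03, SE 0.56, adjusted p = 0.00474), Fignl1 (-3.32, SE 0.54, adjusted p = 0.00186) and Parpbp. Parpbp, a PARP1-binding protein, had 438 counts in P2 sham and 0 in P10 sham, at least 141-fold lower (88.5 to 162 without 1 library, adjusted p = 0.00659). None of the 25 crosslink repair genes was called there, and none of either list after resection. These counts depend on how the lists were drawn, with Brip1 placed under recombination and Neil3 under base excision repair. Parpbp was named for the small count after its values were seen.

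Genes of other repair pathways were counted in the same way, beside 1.68% of all genes called lower at baseline and 1.65% between the sham groups. At baseline Xrcc6, the Ku70 subunit of end joining, fell by 0.91 on the log2 scale (adjusted p = 0.0336), 1 of 17 tested, and Pms1 of mismatch repair fell by 2.90 (adjusted p = 0.0365), 1 of 7. Both calls depended on single libraries, that of Xrcc6 being lost without 5 of the 6 and that of Pms1 without each of the 6. Pms1 was at 6.73 ± 1.28 CPM in P2 sham and 5.73 ± 3.90 in P10 sham (SD, n = 3). At baseline the 17 end joining genes had a median of -0.65, with 12 lower in sign, and the 7 mismatch repair genes one of -0.88, with 7 lower. None of 21 nucleotide excision repair and 21 base excision repair genes was called at baseline, with medians of 0.00 and -0.12. Between the sham groups Neil3, a glycosylase active in dividing cells, fell from 55.2, 17.5 and 27.8 to 0.250, 1.81 and 2.59 CPM (-4.43, SE 0.85, adjusted p = 0.00632), and Ung, the uracil glycosylase, fell from 10.3, 3.41 and 3.46 to 0.0999, 1.03 and 0.943 CPM (-3.04, SE 0.78, adjusted p = 0.0407). These were 2 of 21 base excision repair genes, named after their values were seen, and the call of Ung was lost without 5 of the 6 libraries. Whether the lists differ from each other was not tested.

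**Figure D3:**
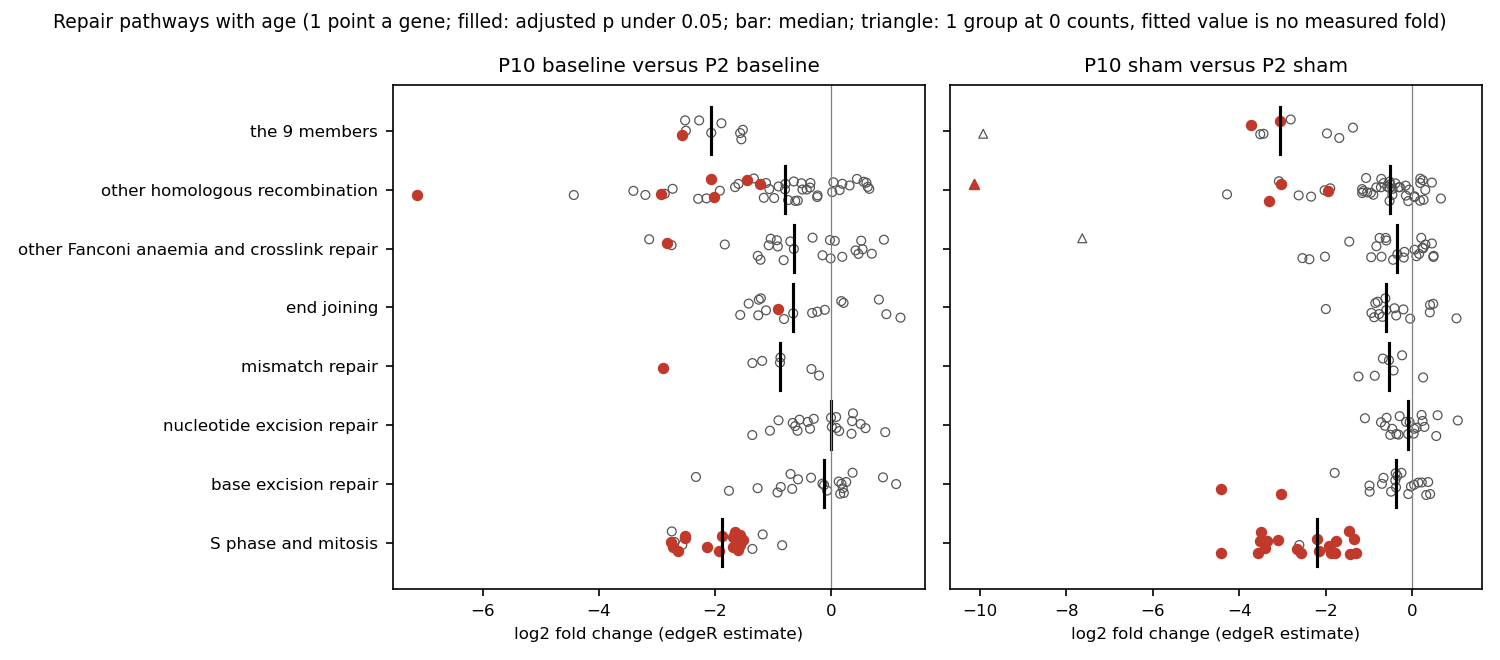
Log2 fold change (horizontal axis, edgeR estimate) from P2 to P10 of every gene tested in the 9 members and 7 gene lists, at baseline on the left and in sham on the right, with filled points at an adjusted p under 0.05, bars at the medians, and triangles for genes with no count in 1 group, whose fitted value is no measured fold. The medians of the members (-2.06 and -3.06) and of the S phase and mitosis genes (-1.87 and -2.21) lie furthest to the left.

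S phase and mitosis genes were measured beside the repair genes because recombination belongs to dividing cells. Of 21 such genes, 15 were called lower from P2 to P10 baseline, 20 between the sham groups and 6 after resection. The shares of all genes called lower were 1.68%, 1.65% and 0.235%. Leaving out 1 library gave 7 to 15, 13 to 18 and 0 to 4 called. In sign 21 of 21 genes were lower in each comparison. Their medians were -1.87, -2.21 and -1.71 on the log2 scale. The largest changes at baseline among those called were in Top2a (-2.75, SE 0.62, adjusted p = 0.0168), Ccnb1 (-2.73, SE 0.55, adjusted p = 0.00966), Ccne2 (-2.64, SE 0.64, adjusted p = 0.0247) and Ccna2 (-2.51, SE 0.45, adjusted p = 0.00408), which encode the DNA topoisomerase of mitosis and 3 cyclins. Leaving out the second or the third P10 baseline library ended the calls of Top2a, Ccnb1 and Ccne2. That of Top2a was also lost without the first P2 baseline library and that of Ccne2 when any single P2 baseline library was left out, while that of Ccna2 held without any 1 of the 6. Between P10 resection and sham 0 of 21 were called and 21 of 21 were higher in sign, with a median of 0.73.

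Summed over the 9 members, CPM was 212, 148 and 167 in P2 baseline, 179, 81.3 and 107 in P2 sham, and 121, 135 and 119 in P2 resection. At P10 baseline the sums were 90.6, 17.3 and 15.8. The 21 S phase and mitosis genes summed to 1662 to 2737 CPM in the 9 P2 libraries and to 389 to 909 in the 9 P10 libraries. As a share of that sum the members stood at 3.88% to 7.76% in the P2 libraries, and at 10.8%, 2.94% and 2.26% in P10 baseline, 7.28%, 2.90% and 2.29% in P10 sham, and 6.31%, 5.20% and 3.31% in P10 resection. The first replicate of each P10 group thus had the highest share. The first P10 baseline library lay above all other P10 libraries for 6 of 9 members, while its S phase sum of 842 CPM was within the P10 range.

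**Figure D4:**
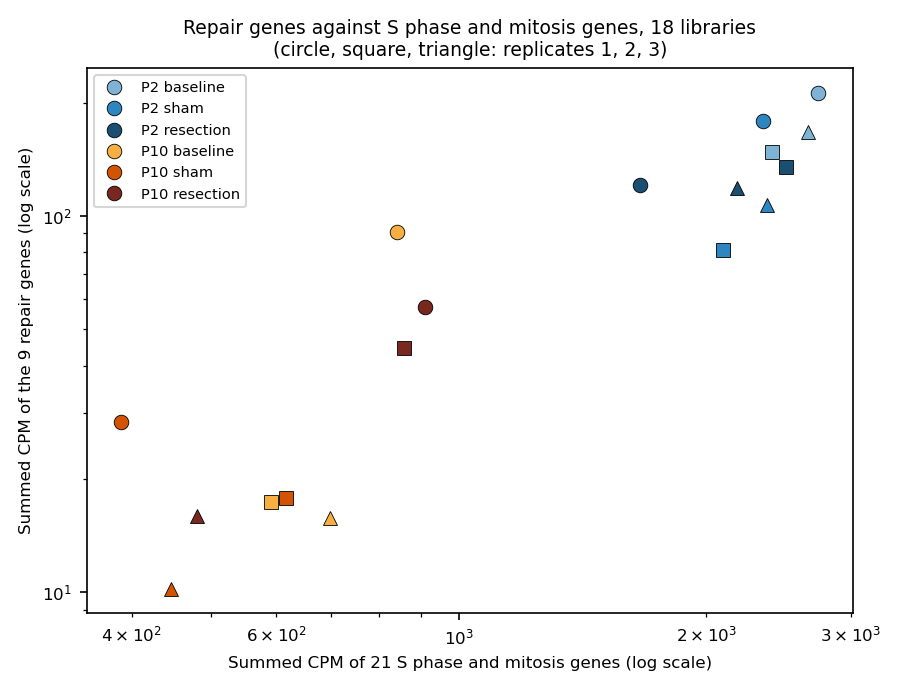
Summed CPM of the 9 repair genes (vertical axis) against summed CPM of 21 S phase and mitosis genes (horizontal axis), both on log scales, with 1 point a library. The P2 libraries sit at 81.3 to 212 CPM of repair genes and the P10 libraries at 10.2 to 90.6, and P10 baseline replicate 1 (90.6) and P10 sham replicate 1 (28.3) lie above P10 libraries with a like S phase sum.

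Genes whose profile over the 18 libraries was most like the mean of the standardized log2 CPM of the members were Mki67 (Pearson r = 0.977), Top2a (0.968), Aspm (0.96), Hmmr (0.959), Specc1 (0.953), Hnrnpr (0.951), Dtl (0.947), Dbf4 (0.941), Ulbp1 (0.939) and Kif23 (0.939). These correlations are a description over libraries that share age groups and the 3 libraries that stand apart. Mki67, the Ki-67 proliferation antigen, was at 282, 246 and 138 CPM in P2 baseline, 433, 33.3 and 80.3 in P2 sham, 90.0, 6.42 and 2.66 in P10 baseline and 16.0, 5.76 and 3.82 in P10 sham, with the first library the highest in each. In P2 resection Mki67 was at 134, 112 and 174 CPM and in P10 resection at 27.8, 36.1 and 9.32, where the first library was not the highest. Among the members themselves, the correlation of each with the mean of the other 8 was highest for Polq (0.906), Fancd2 (0.887) and Rad54l (0.865) and lowest for Blm (0.719) and Rad51ap1 (0.78).

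Markers of fibroblasts and of other cells that the sort could hold were summed in the same way. Cardiomyocyte markers, 11 genes, summed to 318 to 1526 CPM at P2 and 162 to 829 at P10, with 11 of 11 lower in sign at P10 baseline and 0 called. Fibroblast markers, 8 genes, summed to 46085 to 93172 CPM at P2 and 78082 to 114356 at P10. At baseline 4 of 8 were called higher, beside 2.71% of all genes. Epicardial markers, 9 genes, summed to 63.7 to 95.4 CPM at P2, 30.1 to 51.7 in P10 baseline and sham and 50.1 to 102 in P10 resection. At baseline 1 of 9 was called lower, beside 1.68% of all genes. From P2 to P10, 8 of 9 were lower in sign at baseline (median -2.48 on the log2 scale), 6 of 9 in sham (-1.98) and 2 of 9 after resection (1.38). These medians rest on low counts, since the 8 epicardial markers other than Tbx18 had no count in 5 to 13 of the 18 libraries, Wt1, an epicardial transcription factor, in 6. Mural cell markers, 8 genes, summed to 434 to 632 CPM in P2 baseline and 689 to 1517 in P10 baseline. Of these 3 of 8 were called higher, beside 2.71% of all genes, and 7 of 8 were higher in sign. Endothelial markers summed to 173 to 480 CPM at P2 and 252 to 493 at P10, with 0 of 9 called at baseline. Macrophage markers were higher in sign at P10 for 10 of 12 genes at baseline, 12 of 12 in sham (median 1.43 on the log2 scale) and 12 of 12 after resection (1.18). They were also higher for 12 of 12 in P2 resection versus sham (1.11), 9 of 12 in P2 sham versus baseline (0.52) and 11 of 12 in P10 sham versus baseline (1.33), and 0 were called in any of these comparisons. The part of these cells in the members' values was not tested.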

How the data were processed

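Libraries were made from sorted GFP+ cells with a full-length amplification kit (SMARTer) and Nextera XT and sequenced as single 75-base reads. The deposited values are counts per gene symbol. Per the submitters' notes and the methods, reads were trimmed with fastp 0.20.0, aligned with STAR 2.7.0f to GRCm38.p6 with GENCODE M22, and counted on exons with featureCounts (Subread 1.6.4) without regard to strand. Coordinates and exon overlaps were taken from a GRCm38 annotation. Counts as deposited were fitted in R 4.3.3 with edgeR 4.0.16 (filterByExpr, TMM scaling, 1 mean per group over all 18 libraries, glmQLFit and glmQLFTest, Benjamini-Hochberg adjustment over 16170 genes, threshold 0.05), after the procedure recovered known changes in simulated counts. DESeq2 1.42.0 (Wald test, no intercept) was the alternative test. Others were its size factors, no filter, a replicate block, only the groups compared, and leaving out libraries. Log2 CPM for correlations used a prior count of 2. The 9 members and all gene lists were chosen with earlier results of these data known. Named list genes were up to 4 per list called at P10 versus P2 baseline with the largest absolute fold change. Also named, after their values were seen, were repair genes called at baseline (Rbbp8 and Nbn) or between the sham groups (Parpbp, Neil3 and Ung). The 10 genes most like the members were named as well. No pair of replicates looked like 1 library deposited in duplicate. The values of 1 list gene are not reported here, although it is counted in its list. Spatial data and imaging were not used here.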

Additional observations from a re-analysis of the deposited data

How the results depend on the processing

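With DESeq2 size factors in place of TMM the members called between the sham groups went from 2 to 1 (1.67% of all genes called lower). Without the filter on low counts the members called were 3 at baseline, 5 in sham and 2 after resection (1.67%, 1.62% and 0.758% of all genes called lower), and 1 for P10 resection versus sham, 2 for P10 sham versus baseline and 1 for the difference of resection effects (0.263%, 0.522% and 0.104% called in either direction), and other recombination and crosslink genes called were 11 at baseline and 7 in sham, other repair genes 1 and S phase genes 16 after resection. With the DESeq2 Wald test members called were 3, 4 and 1 in the age comparisons (4.31%, 4.16% and 1.57% of all genes lower) and 1 each for P10 resection versus sham, P10 sham versus baseline and the difference (0.213%, 0.963% and 0.114% in either direction), other recombination and crosslink genes 14 at baseline (13 lower, 1 higher) and 9 in sham (9 lower), other repair genes 10 (9 lower, 1 higher), 8 (7 lower, 1 higher) and 2 (1 lower, 1 higher), and S phase genes 11 after resection. Fitting only the groups compared gave 1 member in sham and 1 after resection (0.479% and 0.987% of all genes lower), 2, 2 and 1 other recombination and crosslink genes and 0, 0 and 1 other repair genes in the age comparisons, and 6 S phase genes in sham. The replicate block gave 2 members at baseline and 3 in sham (2.71% and 1.95% of all genes lower) and 1 other repair gene in sham. The numbers were not taken as a pairing, since deviations from group means correlated over 0.1 in 15 of 45 same-numbered pairs (-0.135 to 0.378, median 0.0466), beside 12 of 90 differently numbered pairs (-0.285 to 0.208, median -0.0248). Leaving out the 3 libraries with titles ending in 3, chosen after seeing the data, gave 9 members (8.71% of all genes lower), 21 other recombination and crosslink genes and 14 other repair genes at baseline, 8 and 1 such genes in sham, and 1 member each for P10 resection versus sham, P10 sham versus baseline and the difference (0.00596%, 0.0119% and 0.00596% in either direction). The cause of these moves was not tested.

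Leaving out 1 library gave 0 to 6 members called at baseline (0.452% to 3.25% of all genes lower) and 1 to 3 in sham (0.87% to 1.31%), 2 to 9 other recombination and crosslink genes at baseline and 3 to 5 in sham, 0 to 4 and 1 to 2 other repair genes, and 7 to 15, 13 to 18 and 0 to 4 S phase genes at baseline, in sham and after resection. Members called in the other comparisons (at most 0.789% of all genes in either direction), and both groups of repair genes after resection, stayed at 0. Over all these settings 72 recomputed counts moved by over 1.5 times and 134 did not. Of 905 recomputed log2 fold changes of members, 50 changed sign, and 0 of these belonged to a member called in that comparison. With 3 libraries a group, a difference within its standard error was not detectable. Differences well beyond it could also go uncalled by edgeR, such as that of Rad54l at baseline (-2.51, SE 0.79).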
